A study of Mus musculus with 22 samples.

Results

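AMP-activated protein kinase (AMPK) and the kinases that act on it were followed through the reversion of mouse primed epiblast stem cells (mEpiSCs) to the naive state by AMPK activators. The 10 genes were taken by symbol from a table of 34489 genes. They encode the catalytic α subunits (Prkaa1, Prkaa2), the scaffold β subunits (Prkab1, Prkab2), the regulatory γ subunits (Prkag1, Prkag2), the 3 parts of the LKB1 complex (Stk11, Strada, Cab39) and the kinase Camkk2. All 10 had reads in all 22 bulk RNA-seq libraries and passed the filter on low counts in each comparison.

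Each library was the only one of its line, treatment, day and passage, so no condition had a replicate. Rex1-GFP mESCs, a reporter line for the naive gene Rex1, gave 1 naive library and were kept in 2iL, a medium with LIF and inhibitors of the kinases MEK and GSK3. The primed state was 1 library of Oct4GIP mEpiSCs, a line whose eGFPiresPuro transgene is driven by the Oct4 promoter and enhancer, and 1 library of 129/MSM mEpiSCs, derived from a cross of MSM/Ms and 129X1/SvJ mice. From Oct4GIP, 8 libraries were whole cultures in Basal medium at day 8 (d8) or day 16 (d16), 1 each with no addition, 2iL, AICAR or AICAR+LIF. These cultures were begun on feeder layers of mouse embryonic fibroblasts (MEFs) and were taken whole, and 129/MSM cells were also kept on MEFs. Oct4GIP is an XX line and 129/MSM an XY line. Primed Oct4GIP cells were kept on fibronectin in a serum-free medium, and primed 129/MSM cells in another medium with serum replacement. Reads of both lines were mapped to the same reference. In comparisons of the lines, these traits and the line cannot be told apart. Cells that had received an activator until d16 were then expanded in 2iL without it. The early passages (d16+2–3p) were 4 Oct4GIP libraries, at passage 2 and passage 3 and from AICAR with or without LIF. Passage 10 (d16+10p) had 7 libraries, namely Oct4GIP from AICAR and from A769662, each with or without LIF, and from metformin with LIF, and 129/MSM from AICAR with or without LIF. No library of expanded cells was made in the presence of an activator. Libraries of one state stand in for replicates. The p-values for comparisons of states thus measure the spread between media, activators, passages and lines as well as between cultures. Those for AICAR and for day come from the 8 Oct4GIP cultures alone and measure the spread between media as well as between cultures. Those for the line and for LIF hold the condition or the pair as a term and measure the spread left between single libraries.

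Total counts ranged from 438771 to 5290163 with a median of 2848382, and the lowest were those of AICAR+LIF d8 (438771) and AICAR d8 (956357). Levels are given in CPM, counts scaled to the library total and by factors from the trimmed mean of M values (TMM), and 3 reads corresponded to 0.556 CPM in the deepest library and to 5.75 CPM in AICAR+LIF d8, which covers counting error only. The state labels were checked with fixed marker lists. The summed level of 6 naive markers was 4188 CPM in naive mESCs, 2876 to 4831 CPM in passaged cells and at most 25.1 CPM elsewhere. The summed level of 6 primed markers was 390 CPM in primed Oct4GIP cells and 1844 CPM in the other primed library. It was 459 to 602 CPM at d16+2–3p, not separated from primed cells, and 17.5 to 246 CPM in all other libraries. Dnmt3b was at 439 to 570 CPM at d16+2–3p, between the primed libraries (242 and 882 CPM). T overlapped with them, and Fgf5, Otx2, Pou3f1 and Eomes lay below both. The d8 and d16 cultures of all 4 media carried markers of other cell types: 9 fibroblast markers summed to 2755 to 50380 CPM there, 64.2 and 596 CPM in primed cells and 15.1 to 98.8 CPM in passaged cells. In the 11 passaged libraries Dcn had no read in 8, Lum and Postn in 7, Col3a1 in 3 and Col1a2 in 1, and Col1a1, Thy1, Pdgfrb and Fbn1 had reads in all. For 7 neural markers the sums were 535 to 5048 CPM in the cultures, 239 and 371 CPM in primed cells and 58.3 to 290 CPM in passaged cells, where Dcx had no read in 8 and Neurod1 in 2 of 11 libraries and the other 5 had reads in all. Tubb3 was higher at d16+10p than in primed cells (log2 difference 2.48, SE 0.72, edgeR adjusted p = 0.0098) and Nes lower (-3.23, SE 0.23, edgeR adjusted p = 2.2e-09). In bulk RNA a smaller number of cells of one type and less RNA per cell cannot be told apart, and the part of feeder cells and of these other cell types in the differences below was not tested.

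AMPK is a heterotrimer of one α, one β and one γ subunit, each encoded by more than one gene, and it is switched on when AMP or ADP binds γ and the activation loop of α is phosphorylated. LKB1, the kinase encoded by Stk11, does this in a complex with the pseudokinase STRADα (Strada) and the scaffold MO25α (Cab39), and CaMKK2 does it in response to calcium. AICAR is taken up and turned into an AMP mimic that binds γ, A769662 binds directly to complexes that hold the β1 subunit (Prkab1), and metformin acts indirectly by lowering mitochondrial energy production. All of this control is on the protein, so the RNA levels below report how much message of each part was present and not kinase activity.

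Per kilobase of the longest coding transcript, the most abundant messages in primed cells were Cab39 (mean 32.0 CPM per kb), Stk11 (30.6) and Prkag1 (29.0). These same 3 genes held ranks 1 to 3 among the 10 in each of the 6 groups. Prkab1 followed at 19.4 CPM per kb in primed cells, Prkaa1 at 10.8 and Prkab2 at 10.0, and Strada (7.78), Prkag2 (5.16), Prkaa2 (4.98) and Camkk2 (3.67) were the least abundant. Per kilobase, Prkaa1 had a higher mean than Prkaa2, Prkab1 than Prkab2 and Prkag1 than Prkag2 in all 6 groups. Single libraries could differ: 2iL d16 had 39.1 CPM per kb of Prkag2 and 36.9 of Prkag1, and Basal d16 had 16.3 of Prkab2 and 14.9 of Prkab1. The order also depends on the use of the longest coding transcript as the length. The message whose group means of log2 CPM lay furthest apart was Prkag2 (range 2.82), followed by Prkaa2 (1.92) and Camkk2 (1.55), whereas those of Stk11 spanned only 0.40.

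**Figure D1:**
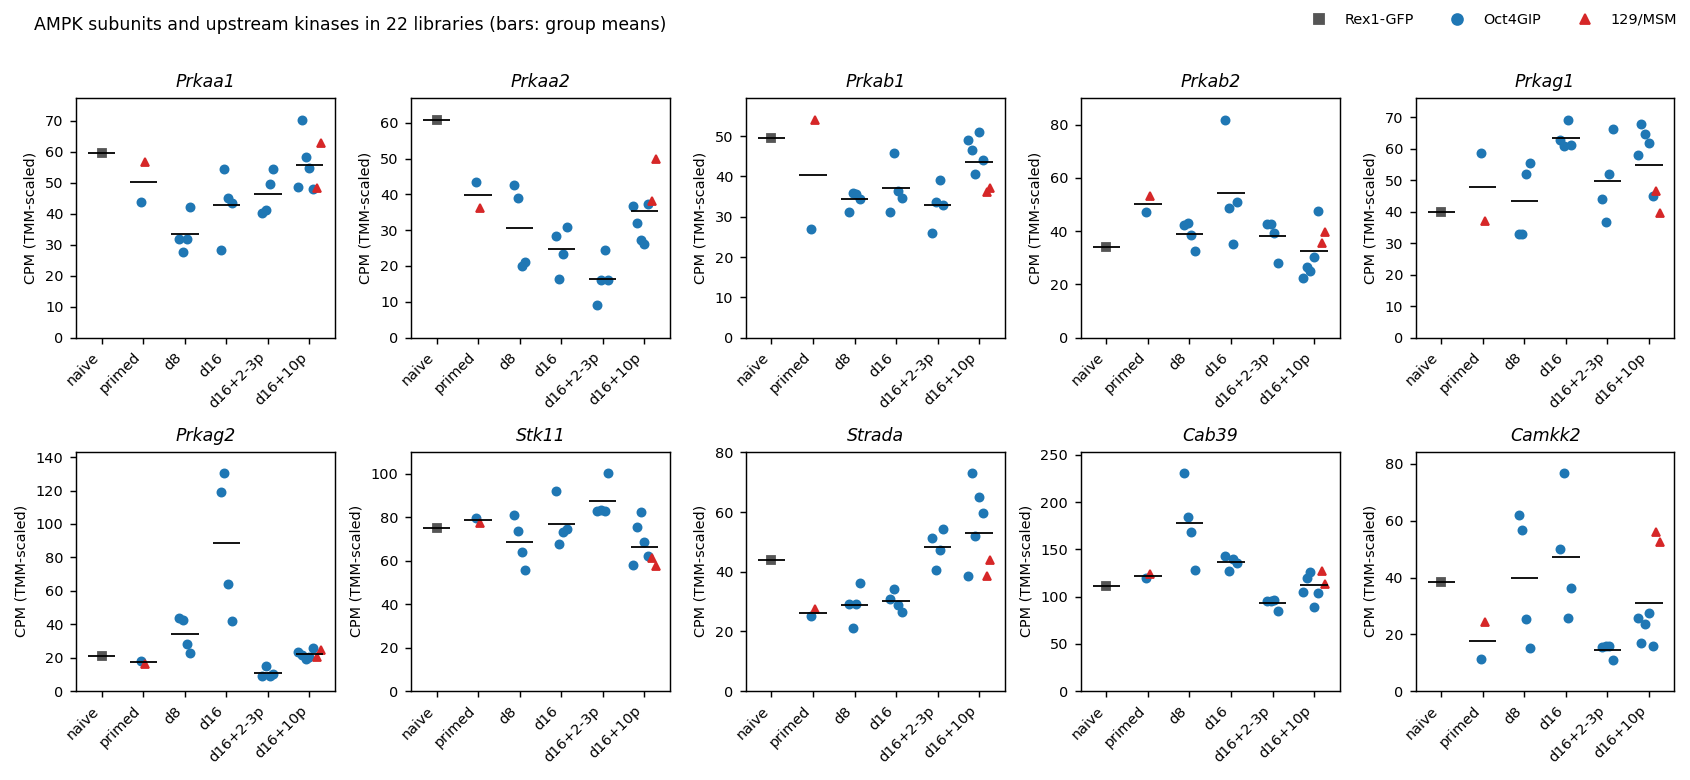
Level of each gene (CPM, TMM-scaled, y axis from 0) in each of the 22 libraries, by state (x axis), with symbols for the cell line and a bar for the mean of each group. Prkag2 reached 119 and 130.3 CPM in d16 cultures without AICAR against 16.4 and 17.9 CPM in primed cells, and Strada lay between 38.5 and 73.0 CPM in all passaged libraries against 21.1 to 36.4 CPM in cultures.

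The question of which messages differed between states was addressed with edgeR's quasi-likelihood test over all genes, and a gene was called at a Benjamini-Hochberg adjusted p under 0.05. Between d16+10p and primed cells, 1 of the 10 genes was higher (Strada) and 0 were lower, where 16.7% of all genes tested were called higher and 19.9% lower. Their median log2 fold change was 0.15 against -0.01 for all genes. An unadjusted p under 0.05 was found for 2 of the 10 and for 8466 of all 18739 genes tested. The share called was lower than the background in both directions, but it rests on only 10 genes and was not tested, so it is not read as a difference.

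In d8 and d16 cultures compared with primed cells, 1 gene was called higher (Prkag2) and 0 lower, against 18.1% and 19.4% of all genes, with medians of 0.07 and 0.04. An unadjusted p under 0.05 was found for 3 of the 10 and for 8686 of all 18739 genes. For passaged cells compared with cultures, 2 were higher (Prkaa1, Strada) and 4 lower (Prkab2, Prkag2, Cab39, Camkk2), against 36.7% and 39.5% of all genes, with medians of -0.17 and -0.08. The share called lower was near the background and the share called higher below it, which over only 10 genes is not read as a difference. From d16+2–3p to d16+10p, 2 were higher (Prkaa2, Prkag2) and 0 lower, against 4.75% and 4.61% of all genes, with medians of 0.31 and -0.00055. An unadjusted p under 0.05 was found for 6 of the 10 and for 4290 of all 18739 genes.

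Within the 8 cultures, 2 genes were lower with AICAR (Prkag2, Camkk2) and 0 higher, against 5.51% and 3.39% of all genes, with medians of -0.20 and -0.03. No further gene of the 10 had an unadjusted p under 0.05, which 4434 of all 15473 genes had. Between d16 and d8 cultures, 2 were higher (Prkag1, Prkag2) and 0 lower, against 17.5% and 12.7% of all genes, with medians of 0.17 and 0.0047. Of the 10, 1 further gene (Cab39) had an unadjusted p under 0.05, which 6650 of all 15473 genes had. The comparison of 129/MSM with Oct4GIP, over 6 libraries of matching conditions, gave 0 of the 10 by edgeR, where 0.116% of all genes were called. An unadjusted p under 0.05 was found for 2 of the 10 and for 1422 of all 12954 genes. Voom and DESeq2 also called 0 of the 10 there. For AICAR+LIF compared with AICAR in 4 pairs of expanded cells, edgeR called 0 of the 10 and 0% of all genes, and voom and DESeq2 called 0. An unadjusted p under 0.05 was found for 0 of the 10 and for 310 of all 12940 genes. Leaving out 1 library moved the number of all genes called by over 1.5 times in each of these comparisons except passaged cells against cultures and AICAR+LIF against AICAR. The first 4 comparisons come from one model and share libraries, so their calls are not independent of each other.

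**Figure D2:**
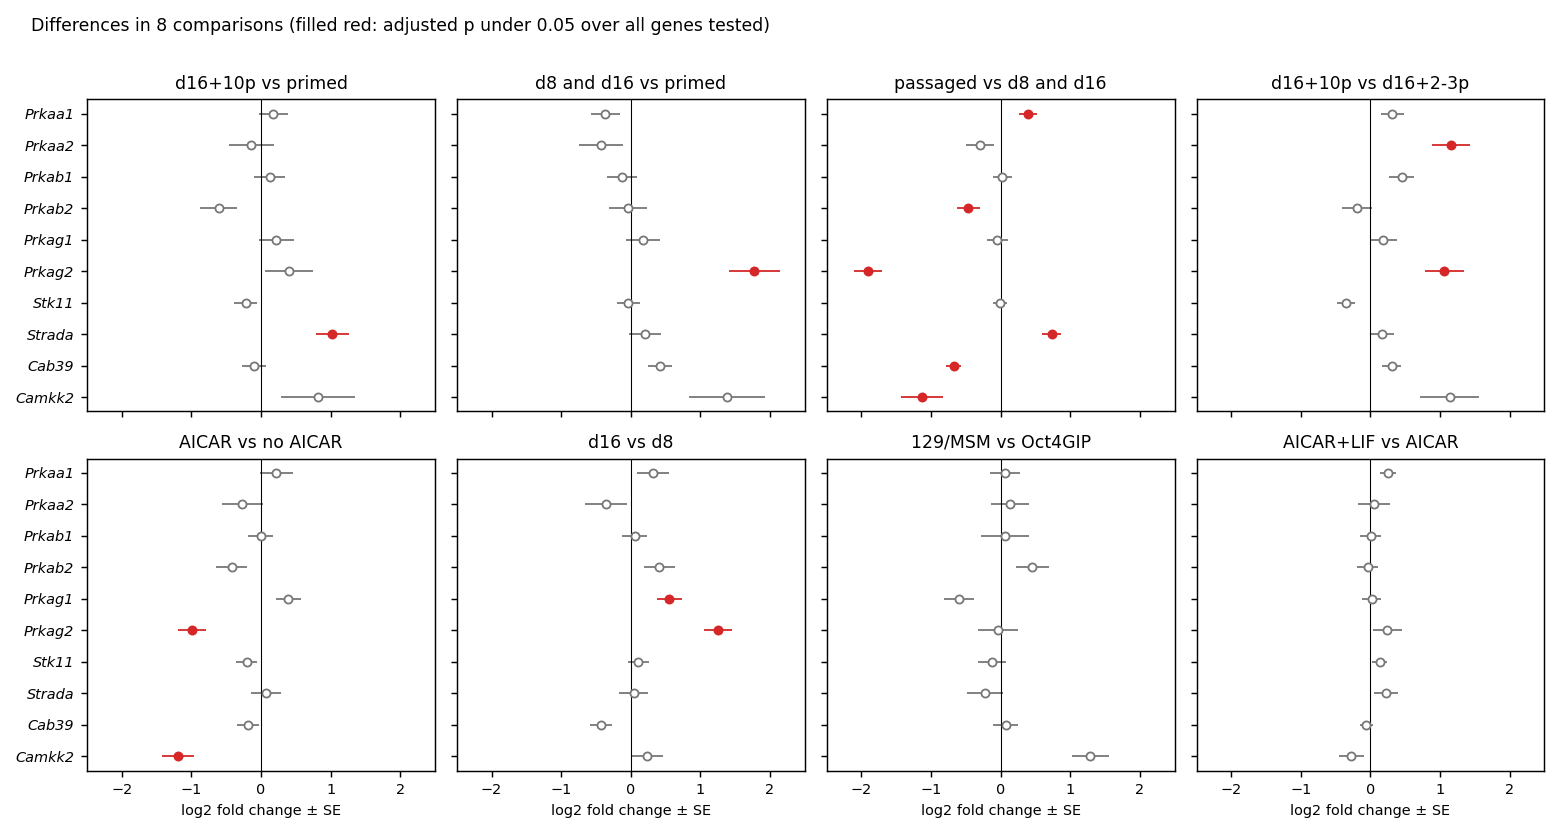
Log2 fold change of each gene (x axis, error bar 1 SE) in the 8 comparisons, first group against second group as in each panel title, with filled red points for an edgeR adjusted p under 0.05 over all genes tested. Prkag2 is called in 5 of the 8 panels, Strada and Camkk2 in 2 each, and Stk11 and Prkab1 in none.

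The catalytic subunits moved separately. Prkaa1 (ENSMUSG00000050697, chr15:5143861-5181899, plus strand, up to 9 exons) had 59.6 CPM in naive cells and 43.7 and 56.7 CPM in primed Oct4GIP and 129/MSM cells. It was at 31.9, 27.8, 32.0 and 42.1 CPM in Basal, 2iL, AICAR and AICAR+LIF cultures at d8 and at 28.4, 54.4, 45.1 and 43.6 CPM at d16. Passaged cells had 40.3 to 54.3 CPM at d16+2–3p (median 45.4) and 48.1 to 70.4 CPM at d16+10p (median 54.8). The passaged cells were higher than the cultures on average but overlapped with them, and the log2 difference between passaged cells and cultures was 0.39 (SE 0.13, edgeR adjusted p = 0.0102). Against the d16 cultures alone the log2 difference was 0.21 with an edgeR adjusted p of 0.227, and without AICAR+LIF d16+3p it was 0.30 with 0.0509.

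Prkaa2 (ENSMUSG00000028518, chr4:105029874-105109890, minus strand, 9 exons), the second catalytic gene, was highest in naive mESCs at 60.8 CPM. Primed Oct4GIP and 129/MSM cells had 43.3 and 36.1 CPM. At d8 the Basal and 2iL cultures had 42.5 and 39.1 CPM and the AICAR and AICAR+LIF cultures 20.1 and 21.1 CPM, and at d16 the 4 media gave 28.4, 16.2, 23.5 and 30.9 CPM. Among the early passages, AICAR d16+2p had 9.23 CPM, AICAR+LIF d16+2p 16.0, AICAR d16+3p 24.4 and AICAR+LIF d16+3p 16.0, so that 3 of the 4 lay just or well below the lowest culture and AICAR d16+3p within the range of the cultures. After 10 passages the 7 libraries lay between 26.3 and 49.98 CPM with a median of 36.9, with no overlap with the 4 earlier ones. That difference was 1.16 on the log2 scale (SE 0.27, edgeR adjusted p = 0.0103), and without AICAR d16+2p it was 0.96 with an edgeR adjusted p of 0.0519. The naive library lay above all 7 d16+10p libraries, the only one of the 10 genes for which it fell outside their range. The share of all genes for which it did so was not counted. With 1 naive library this difference could not be tested, and as it came from another line (Rex1-GFP), state and line cannot be told apart. Between d16+10p and primed cells the log2 difference was -0.14 (SE 0.32, edgeR adjusted p = 0.772).

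The β subunits link the complex to glycogen and set its response to A769662, which acts through β1. Prkab1 (ENSMUSG00000029513, chr5:116013586-116024508, minus strand, up to 8 exons) encodes β1 and was called in none of the 8 comparisons. Its levels were 49.6 CPM in naive cells, 31.2 to 36.0 CPM at d8, 31.2 to 45.9 CPM at d16 and 25.9 to 39.2 CPM at d16+2–3p. The lines moved in opposite directions from primed to d16+10p. In Oct4GIP, primed cells had 26.9 CPM and the d16+10p libraries 44.1 (metformin+LIF), 40.5 (A769662), 51.0 (A769662+LIF), 49.1 (AICAR) and 46.7 (AICAR+LIF). In 129/MSM, primed cells had 54.1 CPM and the d16+10p libraries 36.0 (AICAR) and 37.2 (AICAR+LIF). All 5 Oct4GIP libraries were above and both 129/MSM libraries below their primed library, and the difference between the 2 changes was -1.30 on the log2 scale (SE 0.32, edgeR interaction test, adjusted p = 0.0341), where 1156 of 15930 genes were called. Each line had a single primed library, and the test takes the spread between primed libraries of a line from that between the d16+10p libraries. A difference between these 2 primed libraries and a difference between the lines cannot be told apart. The 2 A769662 libraries (40.5 and 51.0 CPM) lay just below and just above the range of the other Oct4GIP libraries (44.1 to 49.1 CPM), and they had been out of the compound for 10 passages.

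Prkab2 (ENSMUSG00000038205, chr3:97658193-97673812, plus strand, up to 8 exons) encodes β2. It was at 33.9 CPM in naive cells and primed Oct4GIP and 129/MSM cells had 47.1 and 53.1 CPM. The d8 cultures had 32.6 to 43.0 CPM, the d16 cultures 35.2 to 51.0 CPM apart from Basal d16 at 81.8 CPM, and d16+2–3p cells 28.1 to 42.7 CPM. At d16+10p the 4 libraries that had received AICAR or A769662 in Oct4GIP were lowest, at 22.3 to 30.4 CPM, and metformin+LIF (47.5) and the 129/MSM libraries (35.6 and 39.5) were higher. Passaged cells were lower than cultures by a log2 difference of -0.46 (SE 0.17, edgeR adjusted p = 0.0151), with overlap. Without Basal d16 the log2 difference was -0.33 with an edgeR adjusted p of 0.0564, without 2iL d8 it was -0.38 with 0.0559, and against the d8 cultures alone -0.21 with 0.312. Against primed cells the d16+10p difference was -0.61 (SE 0.27, edgeR adjusted p = 0.0822), and without metformin+LIF it was -0.73 with 0.0358.

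The γ subunits carry the sites that bind adenine nucleotides, and hence the AICAR-derived AMP mimic. Prkag1 (ENSMUSG00000067713, chr15:98812797-98831521, minus strand, up to 12 exons) encodes γ1, the broadly expressed form. At d8 it was at 32.9 CPM in both Basal and 2iL and at 52.0 and 55.6 CPM with AICAR and AICAR+LIF, and at d16 the 4 media lay between 60.9 and 69.2 CPM. All d16 libraries were above all d8 libraries, and the log2 difference was 0.55 (SE 0.18, edgeR adjusted p = 0.0486). This call was lost in 11 of 17 alternatives, among them the fit with the medium as a block (0.56, adjusted p = 0.0956), each of 6 in which 1 culture was left out (Basal, 2iL or AICAR, at d8 or d16; edgeR adjusted p up to 0.145), and unscaled counts (0.43, adjusted p = 0.116). Elsewhere Prkag1 was at 40.0 CPM in naive cells, 58.6 and 37.0 CPM in primed Oct4GIP and 129/MSM, 36.6 to 66.4 CPM at d16+2–3p and 39.5 to 67.7 CPM at d16+10p, and these ranges overlapped.

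Prkag2 (ENSMUSG00000028944, chr5:24862744-25100642, minus strand, up to 16 exons) encodes γ2, which carries a long N-terminal extension in its larger isoforms and is best known for mutations that cause a glycogen-storage disease of the heart. Naive cells had 21.1 CPM and primed Oct4GIP and 129/MSM cells 17.9 and 16.4 CPM. At d8 the Basal, 2iL, AICAR and AICAR+LIF cultures had 43.9, 42.6, 28.3 and 23.0 CPM, the last from 12 reads. At d16 they had 119, 130.3, 64.2 and 41.7 CPM. All 8 cultures were thus above both primed libraries, and within each day both AICAR libraries were below both libraries without it.

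After expansion the message was low again. AICAR d16+2p had 8.93 CPM, AICAR+LIF d16+2p 15.3, AICAR d16+3p 9.14 and AICAR+LIF d16+3p 10.6, all below the primed libraries. The 7 d16+10p libraries had 19.2 to 26.1 CPM (median 21.4), a range that held the naive library and lay above both primed ones. The log2 difference of cultures to primed cells was 1.78 (SE 0.36, edgeR adjusted p = 0.00077), that of passaged cells to cultures -1.91 (SE 0.20, edgeR adjusted p = 2.5e-08), and that of d16+10p to d16+2–3p cells 1.06 (SE 0.28, edgeR adjusted p = 0.0195). The first 2 were called in all of their 21 and 30 alternatives. The third was lost in 5 of 20: without AICAR d16+2p, AICAR d16+3p or AICAR+LIF d16+3p (log2 0.97, 0.98 and 1.04, edgeR adjusted p = 0.0797, 0.0749 and 0.0607), by voom (1.09, adjusted p = 0.07) and on counts thinned to the smallest total (1.38, edgeR adjusted p = 0.069). Against primed cells the d16+10p difference was 0.40 (SE 0.34, edgeR adjusted p = 0.395).

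Within the cultures, Prkag2 differed with both day and AICAR. The log2 difference of d16 to d8 was 1.26 (SE 0.20, edgeR adjusted p = 0.0044), called in all 17 alternatives, and that of AICAR to no AICAR was -0.99 (SE 0.20, edgeR adjusted p = 0.0251). The AICAR effect did not differ detectably between d16 and d8 (log2 difference -0.59, SE 0.36, edgeR interaction test, adjusted p = 0.495). Its direction was the same in all 16 alternatives, at -1.24 to -0.81, but the call was lost in 9 of them: without any 1 of the 4 d8 cultures, without Basal, AICAR or AICAR+LIF d16, with no term for the day, and without both shallow d8 libraries together, where the edgeR adjusted p was 0.0923 and 0 of all genes were called. Between d16 and d8, 7 of 9 fibroblast markers rose (all d16 sums, at 5500 to 50380 CPM, were above all d8 sums, at 2755 to 3214 CPM) and 5 of 7 neural markers fell, against 17.5% and 12.7% of all genes. With AICAR, 2 of 9 fibroblast, 3 of 6 primed and 2 of 6 tested striated muscle markers were called higher, against 3.39% of all genes. The median log2 fold change of the fibroblast list was -0.37. Of the 7 neural markers 0 were called higher and 0 lower, against 5.51% of all genes lower. The neural sums at d8 were 5048 and 3146 CPM without and 1284 and 1010 CPM with AICAR. At d16 they were 998 and 535 CPM without and 670.1 and 597 CPM with AICAR, without separation. The part of these cells in the Prkag2 differences was not tested.

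**Figure D3:**
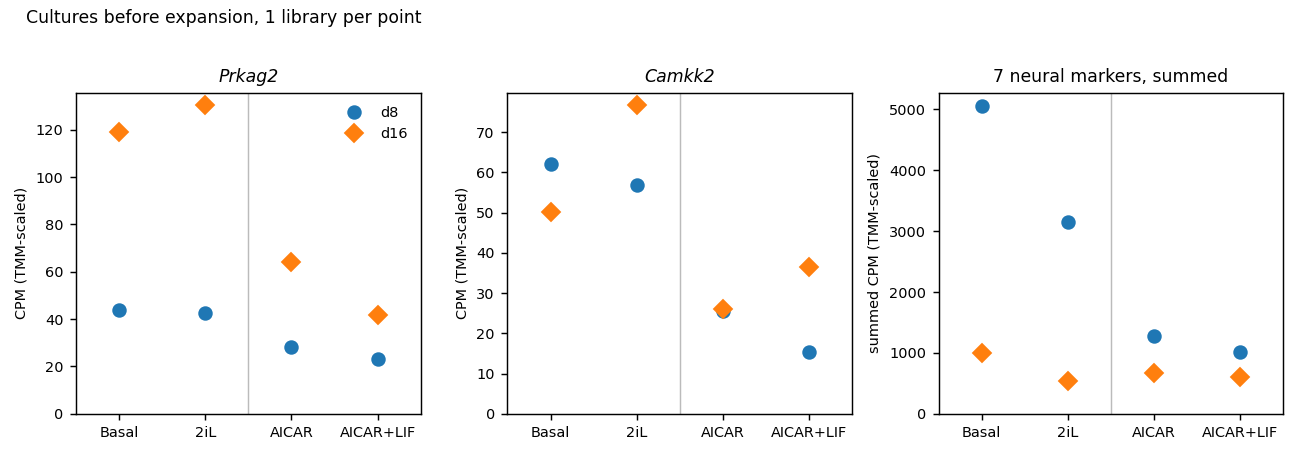
Levels (CPM, TMM-scaled, y axes from 0) of Prkag2 and Camkk2 and the summed level of 7 neural markers in the 8 Oct4GIP cultures before expansion, by medium (x axis), with circles for d8 and diamonds for d16. Prkag2 was at 23.0 to 28.3 CPM with AICAR and at 42.6 and 43.9 CPM without it at d8, and Camkk2 was at 15.3 to 36.5 CPM with AICAR and at 50.1 to 76.7 CPM without it over both days.

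Because Prkag2 and Camkk2 were both lower with AICAR and in passaged cells, the 250 bases upstream of their annotated starts are shown (RefSeq, GRCm38.p6, minus strand, 5′ to 3′ in the direction of the gene). Capitals mark GGGCGG (the GC box, bound by Sp1-family factors) and AGGTCA (the half-site of nuclear receptors) on either strand. CACGTG, an E-box, was searched too and was not found in these windows. The 3 motifs do not overlap each other here. Prkag2 has 3 such starts, in the order of the gene, and the deposited gene counts do not separate them.
Prkag2 start 1, chr5:25100643-25100892: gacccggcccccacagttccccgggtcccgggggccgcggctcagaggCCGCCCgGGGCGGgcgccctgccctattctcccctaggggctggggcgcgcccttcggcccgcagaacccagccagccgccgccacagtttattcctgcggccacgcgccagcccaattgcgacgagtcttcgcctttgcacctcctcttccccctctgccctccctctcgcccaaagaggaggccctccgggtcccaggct
Prkag2 start 2, chr5:24995754-24996003: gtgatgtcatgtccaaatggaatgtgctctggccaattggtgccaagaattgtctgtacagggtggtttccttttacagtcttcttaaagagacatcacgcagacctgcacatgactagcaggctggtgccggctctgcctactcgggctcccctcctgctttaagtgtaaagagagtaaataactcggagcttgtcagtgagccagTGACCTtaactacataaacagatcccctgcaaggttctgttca
Prkag2 start 3, chr5:24908510-24908759: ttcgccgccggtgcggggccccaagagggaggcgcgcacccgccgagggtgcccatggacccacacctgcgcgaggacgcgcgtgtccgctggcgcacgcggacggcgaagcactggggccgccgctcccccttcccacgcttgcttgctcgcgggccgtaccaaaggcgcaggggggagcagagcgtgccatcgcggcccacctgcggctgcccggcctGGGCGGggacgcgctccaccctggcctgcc
Camkk2, chr5:122779411-122779660: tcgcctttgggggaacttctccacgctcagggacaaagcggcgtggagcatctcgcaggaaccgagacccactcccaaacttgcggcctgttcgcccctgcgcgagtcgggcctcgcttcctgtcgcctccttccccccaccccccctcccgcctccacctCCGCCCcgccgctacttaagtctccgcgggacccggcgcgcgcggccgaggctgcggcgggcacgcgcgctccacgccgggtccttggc

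The windows differ in composition. Prkag2 starts 1 and 3 and Camkk2 have 73.2%, 77.2% and 72.4% G and C and at least 1 GC box each, and Prkag2 start 2 has 48.4% G and C, no GC box and the only AGGTCA among the upstream windows of the 10 genes. GGGCGG occurred in a window of 8 of the 10 genes and in 32.7% of all 32851 annotated promoters, AGGTCA in 1 of 10 and in 14.0%, and CACGTG in 0 of 10 and in 6.02%. The 2 measures differ: a gene counted with a match in any of its windows, of which Prkag2 has 3, and the background counts single promoters. A match describes letters in the window and not a bound site.

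The LKB1 complex is the main kinase of AMPK in most tissues, and its 3 genes behaved differently from each other. Stk11 (ENSMUSG00000003068, chr10:80115803-80130682, plus strand, up to 10 exons), which encodes LKB1, was called in none of the 8 comparisons. It was at 74.9 CPM in naive cells, 79.6 and 77.6 CPM in primed Oct4GIP and 129/MSM cells, 55.6 to 81.3 CPM at d8 and 67.8 to 92.0 CPM at d16. The d16+2–3p libraries had 82.8, 83.5, 83.1 and 100.3 CPM (AICAR d16+2p, AICAR+LIF d16+2p, AICAR d16+3p, AICAR+LIF d16+3p) and the d16+10p libraries 57.7 to 82.6 CPM (median 62.4), without overlap. That difference was -0.35 on the log2 scale (SE 0.13, edgeR adjusted p = 0.0986), and by DESeq2 it was -0.38 with an adjusted p of 0.0256. It was also called in a fit of these 2 groups alone (-0.35, edgeR adjusted p = 0.031), where 22.3% of all genes were called.

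Strada (ENSMUSG00000069631, chr11:106163330-106202168, minus strand, up to 13 exons) encodes the pseudokinase that binds LKB1, holds it in an active form and keeps it in the cytoplasm. Primed Oct4GIP and 129/MSM cells had 25.0 and 27.7 CPM. The d8 cultures had 29.1, 21.1, 29.2 and 36.4 CPM (Basal, 2iL, AICAR, AICAR+LIF) and the d16 cultures 30.8, 34.1, 29.0 and 26.4 CPM. Passaged cells were all higher, with 51.4, 40.4, 47.2 and 54.3 CPM at d16+2–3p in the order just used for Stk11. At d16+10p the Oct4GIP libraries had 59.6 (metformin+LIF), 51.8 (A769662), 65.1 (A769662+LIF), 38.5 (AICAR) and 73.0 CPM (AICAR+LIF), and the 129/MSM libraries 38.5 (AICAR) and 43.8 (AICAR+LIF). The naive library, at 43.9 CPM, lay within this range, so that neither primed library nor any culture reached the lowest of the 12 naive and passaged libraries.

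For Strada the log2 difference of d16+10p to primed cells was 1.02 (SE 0.24, edgeR adjusted p = 0.0018), and that of passaged cells to cultures 0.73 (SE 0.13, edgeR adjusted p = 5.2e-05). The second was called in all 30 alternatives, at 0.65 to 0.87. The first was called in 19 of 20 and was lost with 129/MSM alone, where 1 primed and 2 d16+10p libraries gave 0.58 with an edgeR adjusted p of 0.1. Between d16+10p and d16+2–3p cells the difference was 0.17 (SE 0.17, edgeR adjusted p = 0.618), and between cultures and primed cells 0.20 (SE 0.23, edgeR adjusted p = 0.51). In both lines and in both activator arms the AICAR+LIF or A769662+LIF library was higher than its partner at d16+10p, but with the early passages included the log2 difference of AICAR+LIF to AICAR was 0.22 (SE 0.17, edgeR adjusted p = 1).

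Cab39 (ENSMUSG00000036707, chr1:85793441-85851576, plus strand, up to 10 exons) encodes the scaffold that locks LKB1 and STRADα together. It was at 112 CPM in naive cells and primed Oct4GIP and 129/MSM cells had 119.5 and 124 CPM. The d8 cultures had 230.4, 184, 168 and 128 CPM (Basal, 2iL, AICAR, AICAR+LIF) and the d16 cultures 143, 127, 139.6 and 135.5 CPM. Passaged cells had 85.3 to 96.8 CPM at d16+2–3p and 89.4 to 127.2 CPM at d16+10p, all below all cultures. The closest were 129/MSM AICAR d16+10p and 2iL d16, at 127.2 and 127.4 CPM. The log2 difference of passaged cells to cultures was -0.68 (SE 0.10, edgeR adjusted p = 3.9e-06), called in all 30 alternatives, and the direction was thus opposite to that of its partner Strada. Cultures lay above both primed libraries without overlap, but that difference of 0.42 on the log2 scale (SE 0.17) had an edgeR adjusted p of 0.0596. It was called by DESeq2 (0.51, adjusted p = 0.0038), by voom (0.43, adjusted p = 0.0372) and by edgeR without both shallow d8 libraries (0.49, adjusted p = 0.0116).

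Camkk2 (ENSMUSG00000029471, chr5:122731170-122779409, minus strand, up to 17 exons) encodes the calcium-dependent kinase that phosphorylates AMPK independently of LKB1 and is most abundant in the nervous system. Naive cells had 38.4 CPM and primed Oct4GIP and 129/MSM cells 11.2 and 24.5 CPM. The Basal, 2iL, AICAR and AICAR+LIF cultures had 62.1, 56.7, 25.6 and 15.3 CPM at d8, the last from 8 reads, and 50.1, 76.7, 25.9 and 36.5 CPM at d16. All 4 AICAR libraries were below all 4 without it, and the log2 difference was -1.19 (SE 0.23, edgeR adjusted p = 0.0214). It did not differ detectably between d16 and d8 (log2 difference 0.37, SE 0.46, edgeR interaction test, adjusted p = 0.774). The direction was the same in all 16 alternatives, at -1.36 to -1.03, and the call was lost in 7 of them: without any 1 of the 4 d8 cultures or AICAR d16, with no term for the day, and without both shallow d8 libraries (-1.03, edgeR adjusted p = 0.145). The neural marker sums given above were also lower with AICAR at d8, and at d16 they were 998 and 535 CPM without and 670.1 and 597 CPM with AICAR. The part of neural cells in the Camkk2 difference was not tested.

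Camkk2 in passaged cells separated by line, and sex cannot be told apart from line here. The d16+2–3p libraries, all Oct4GIP, had 10.9 to 16.0 CPM, and the Oct4GIP d16+10p libraries 15.8 (metformin+LIF), 23.6 (A769662), 27.4 (A769662+LIF), 25.7 (AICAR) and 17.1 CPM (AICAR+LIF). The 129/MSM d16+10p libraries had 55.9 (AICAR) and 52.7 CPM (AICAR+LIF), above every Oct4GIP library of primed or passaged cells, as was the 129/MSM primed library at 24.5 CPM compared with its Oct4GIP counterpart at 11.2 CPM. The log2 difference of 129/MSM to Oct4GIP over 3 matched pairs was 1.29 (SE 0.27), larger than for 97.01% of genes, with an unadjusted p of 0.00215 and an edgeR adjusted p of 0.157. It was called with no filter on low counts (1.29, edgeR adjusted p = 0.00446) and without either primed library (1.37, edgeR adjusted p = 0.00389 and 0.00455), settings that called 3.25%, 10.5% and 9.9% of all genes in place of 0.116%. The difference of d16+10p to primed cells was not detectably different between the lines (log2 difference 0.23, SE 0.51, edgeR interaction test, adjusted p = 0.839). Over both lines it was 0.82 (SE 0.53, edgeR adjusted p = 0.246). With the line as a block in a fit of primed and d16+10p cells, added after seeing the data, it was 1.06 with an edgeR adjusted p of 0.00822, where 43.9% of all genes were called. Passaged cells were below cultures by a log2 difference of -1.13 (SE 0.30, edgeR adjusted p = 0.0019), called in all 30 alternatives, and cultures were above primed cells by 1.38 (SE 0.54, edgeR adjusted p = 0.0506), with overlap in both. The difference of cultures to primed cells was not called in the main fit. It was called by DESeq2 (1.45, adjusted p = 0.0204), by voom (1.43, adjusted p = 0.0454) and by edgeR without both shallow d8 libraries (1.59, adjusted p = 0.0175).

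The balance between the paralogs of each subunit does not depend on scaling between libraries, and is given as the share of reads of the second gene in the reads of both, as a description. The Prkag2 share was 34.6% in naive cells (95% Wilson interval 28.2 to 41.5%, 66 of 191 reads) and 23.4% and 30.7% in primed Oct4GIP and 129/MSM cells. It was 57.1% and 56.5% in Basal and 2iL cultures at d8 and 65.4% and 68.2% at d16, whereas AICAR and AICAR+LIF cultures had 35.2% and 29.3% at d8 and 48.1% and 40.6% at d16. By reads the share was thus above 50% in all 4 cultures without AICAR and in none of the 4 with it, although the interval of 2iL d8 (49.4 to 63.3%) reached below 50% and that of AICAR d16 (43.5 to 52.9%) above it. It was 13.7 to 29.4% at d16+2–3p (mean 18.8% ± 7.22, SD, n = 4) and was 22.8 to 38.6% at d16+10p (mean 29.5% ± 6.20, SD, n = 7). The interval of AICAR+LIF d8 (17.6 to 44.5%, from 41 reads) was the widest of the Prkag2 shares.

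The Prkaa2 share was 50.5% in naive cells (interval 45.5 to 55.6%), 49.8% and 38.9% in primed Oct4GIP and 129/MSM cells, 18.6 to 32.99% at d16+2–3p (mean 25.6% ± 6.24, SD, n = 4) and 31.2 to 44.3% at d16+10p (mean 38.7% ± 6.43, SD, n = 7). At d8 it was 57.1% and 58.5% in Basal and 2iL and 38.6% and 33.3% with AICAR and AICAR+LIF, whereas at d16 the order was 50%, 23.0%, 34.2% and 41.5% and did not follow AICAR. The Prkab2 share was 40.6% in naive cells, 63.6% and 49.5% in primed Oct4GIP and 129/MSM cells, 48.6 to 72.4% in the cultures and 46.1 to 62.2% at d16+2–3p. At d16+10p it was 31.3 to 38.0% in the 4 Oct4GIP libraries of AICAR or A769662, 51.9% with metformin+LIF and 49.7% and 51.5% in 129/MSM. The intervals lay below 50% in those 4 libraries and in naive cells. Longer transcripts collect more reads and these shares are not corrected for length, so they do not rank the paralogs, and per kilobase the mean of Prkab1 was above that of Prkab2 in all 6 groups (19.4 and 10.0 CPM per kb in primed cells, 17.7 and 10.8 in d16 cultures).

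**Figure D4:**
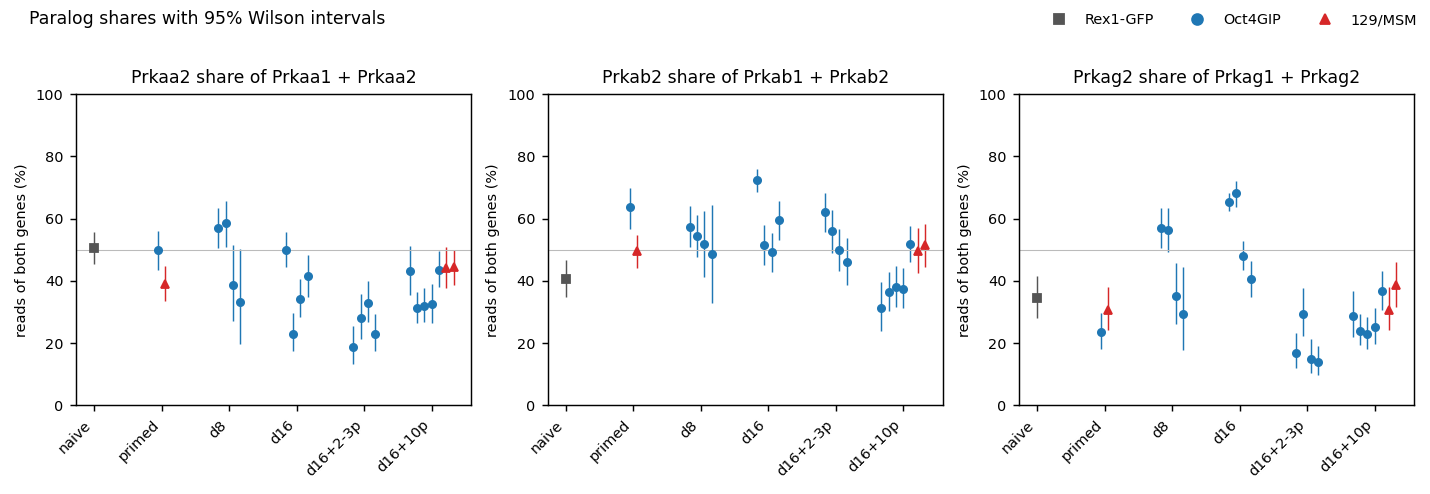
Share of Prkaa2, Prkab2 and Prkag2 reads in the reads of both paralogs (y axis, percent) in each library by state (x axis), with 95% Wilson intervals that cover counting error only and symbols for the cell line. The Prkag2 share was 56.5 to 68.2% in cultures without AICAR, 29.3 to 48.1% with it and 13.7 to 38.6% in passaged cells.

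The other genes of the pathway were counted over a list of 46, of which 45 were tested in the first 6 comparisons. Between d16+10p and primed cells 4 were higher and 13 lower, against 16.7% and 19.9% of all genes. Ulk1, the kinase that starts autophagy, rose by a log2 difference of 2.60 (SE 0.25, edgeR adjusted p = 1.2e-07) and Trp53 by 1.06 (SE 0.18), whereas Ulk2 fell by 2.31 (SE 0.37) and Nuak1 and Nuak2, which like AMPK are phosphorylated by LKB1, fell by 4.22 (SE 0.68) and 3.08 (SE 0.42). Among the close relatives of the 10 genes, Stradb, the paralog of Strada, was lower by 1.28 (log2 fold change -1.28, SE 0.41, edgeR adjusted p = 0.0182), and so was Camkk1, the paralog of Camkk2 (-1.60, SE 0.54, edgeR adjusted p = 0.0241). The 2 STRAD messages thus differed from primed cells in opposite directions.

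In passaged cells compared with cultures, 9 of the 45 were higher and 23 lower, against 36.7% and 39.5% of all genes. The AMPK-related kinases accounted for 9 of the 23, among them Nuak1 (-5.43, SE 0.49) and Brsk2 (-4.73, SE 0.44), and Sik1 (1.17, SE 0.22) and Mark2 (0.44, SE 0.11) were higher. The AMPK substrates included 4 higher, such as Ulk1 (2.39, SE 0.13), and 10 lower, such as Ulk2 (-3.83, SE 0.26). Stradb was again lower (-2.23, SE 0.26, edgeR adjusted p = 1.6e-07), opposite to Strada. Of the sestrins, stress-induced proteins that feed into AMPK, Sesn2 was higher (1.53, SE 0.19) and Sesn3 lower (-1.39, SE 0.17). From d16+2–3p to d16+10p, 7 were higher and 0 lower, against 4.75% and 4.61% of all genes, among them Srebf1, a regulator of lipid synthesis (1.12, SE 0.19, edgeR adjusted p = 0.001), and Mark1 (1.95, SE 0.50).

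With AICAR in the cultures, 1 of 45 was higher (Tbc1d1, which controls glucose transporter traffic, 1.16, SE 0.22, edgeR adjusted p = 0.0196) and 7 were lower, against 3.39% and 5.51% of all genes. Without both shallow d8 libraries 0 of 15090 genes were called, so that all 8 of these calls were lost, and with no term for the day 14 of 15473 were. Those lower included 3 enzymes of carbohydrate metabolism, Pfkfb3 (-1.12, SE 0.29), Pfkfb2 (-1.04, SE 0.22) and the glycogen synthase Gys1 (-1.03, SE 0.20), the AMPK phosphatase Ppm1e (-1.85, SE 0.40) and the brain kinase Brsk2 (-1.39, SE 0.32). Between d16 and d8 cultures 9 were higher, such as the acetyl-CoA carboxylase Acacb (2.19, SE 0.38), and 6 lower, such as Brsk2 (-2.29, SE 0.32), against 17.5% and 12.7% of all genes. In cultures compared with primed cells 8 were higher, such as Brsk2 (4.40, SE 0.84), and 5 lower, such as Sesn2 (-1.43, SE 0.29), against 18.1% and 19.4% of all genes. For 129/MSM compared with Oct4GIP (41 tested) and for AICAR+LIF compared with AICAR (40 tested) edgeR called 0. Of them 3 and 1 had an unadjusted p under 0.05, against 1422 of 12954 and 310 of 12940 of all genes.

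The genes whose pattern was most like that of a member were sought over the 22 libraries by the root mean square difference of centred log2 CPM among 11181 genes. For Prkag2, whose own SD over the libraries was 0.97, the nearest were Psap (0.33), Klhl25 (0.37), Hacd3 (0.41), Mpc2 (0.41) and Ppp1r9b (0.42). For Prkaa2 (SD 0.61) they were Tkfc (0.39), Rsrc1 (0.39), Tk2 (0.40), Mia2 (0.41) and Arrb2 (0.42), and for Camkk2 (SD 0.80) Mmp17 (0.43), Cltb (0.51), Capn10 (0.52), Marchf2 (0.52) and Gpkow (0.53). No other member was among them.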

How the data were processed

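Bulk RNA-seq was analysed from 22 libraries. From stranded mRNA libraries read from one end, the authors aligned reads with Bowtie2 2.2.5 to the cDNA and ncRNA of Ensembl GRCm38 and dropped alignments with a MAPQ below 1. The deposited values are raw read counts per gene. Reads shared by similar genes could be lost or assigned to either. Transcript counts and numbers of detected genes were not used here.

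Libraries were grouped by state. The 10 genes and the lists of pathway and marker genes were chosen with earlier results of these data known. Genes were tested with edgeR 4.0.16 (quasi-likelihood) in R 4.3.3, after filterByExpr on the groups and with TMM factors, and p-values were adjusted over all genes tested by Benjamini-Hochberg at 0.05. States were compared in one fit of the 22 libraries and 6 groups. AICAR and day were tested in the 8 cultures, each with the other as a covariate, 129/MSM against Oct4GIP in 3 matched conditions, and AICAR+LIF against AICAR in 4 pairs that share line and passage. SE is the log2 fold change divided by the root of the F statistic.

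Alternatives used DESeq2 1.42.0, limma voom (3.58.1), RLE size factors, no factors, no filter, counts thinned to the smallest total, other sets of libraries or covariates, and libraries left out singly. Fits with 1 day of culture or 1 line, and with line, medium or LIF as a block, were added after seeing the data. All tests were also run on simulated counts, drawn from a single mean per gene apart from added changes. These counts do not model lines, activators or feeder cells, and no conclusion is drawn from them here. Positions and lengths were taken from GENCODE M21 (GRCm38), and upstream windows from RefSeq (GRCm38.p6), which held an entry for all 10 genes. Wilson intervals (95%) used scipy 1.17.1, and figures matplotlib 3.10.9, in Python 3.11.15. All 10 genes were named. Of the pathway lists, up to 3 called genes per list and direction with the largest change and a mean log2 CPM of at least 2 could be named, and the 5 nearest genes were given for the 3 members with the widest range of group means, among genes with a mean log2 CPM of at least 3.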

Additional observations from a re-analysis of the deposited data

Results flagged for a closer look

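The change of Prkab1 from primed to d16+10p cells differed between the lines, by -1.30 on the log2 scale (129/MSM minus Oct4GIP, edgeR interaction test, adjusted p = 0.0341), with the message higher in 5 of 5 Oct4GIP libraries and lower in 2 of 2 129/MSM libraries than in the primed library of the same line. Each line had 1 primed library (26.9 CPM in Oct4GIP, 54.1 CPM in 129/MSM), so a difference between these 2 libraries and one between the lines cannot be told apart.

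In 40 sets of 4 or 7 libraries (10 genes in 4 groups), 3 held a library farther from the others than Dixon's 95% limit, and chance gives about 1 in 20 such sets. All 3 were AICAR+LIF d16+3p among the 4 d16+2–3p libraries. It had 100.3 CPM of Stk11 against 82.8 to 83.5 CPM in the other 3, 85.3 CPM of Cab39 against 94.99 to 96.8 CPM, and 10.9 CPM of Camkk2 (30 reads) against 15.4 to 16.0 CPM. Its total of 3046574 reads was within the range of its group.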

How the results depend on the processing

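No called difference turned its direction under any alternative. Passaged cells against cultures gave 6 called genes, where 76.2% of all genes were called, and 5 to 7 with a library left out, where 73.7% to 76.1% were. Prkab2 was lost with no filter and against d8 alone, and Prkaa1 on thinned counts and against d16 alone. For d16+10p against primed cells the count was 1, where 36.6% of all genes were called, and 2 with the line as a block, where 43.9% were. It was 1 to 2 with a library left out, with 2 without metformin+LIF d16+10p, where 34.8% were called. With Oct4GIP alone, which leaves 1 primed library, the log2 difference of Prkab1 was 0.77 and 0.79 in both fits of it. For cultures against primed cells it was 1, where 37.5% of all genes were called. It was 3 by DESeq2 (38% of all genes), by voom (37.8%), with RLE size factors (37.5%), without AICAR d8 and AICAR+LIF d8 (40.7%) and with d8 alone (30.5%). With d16 alone it was 2 (44.6%). With a library left out it was 1 to 3. It was 2 without AICAR d8 (37.7%), 2iL d16 (36.6%), AICAR d16 (37.5%) or AICAR+LIF d16 (37%), and 3 without AICAR+LIF d8 (39.1%). For d16+10p against d16+2–3p it was 2, where 9.35% of all genes were called, and DESeq2 added Stk11 (log2 -0.38, adjusted p = 0.0256, 11.8% called). The count was 1 by voom (9.9% of all genes called), 0 on thinned counts (4.77%) and 5 in a fit of these groups alone (22.3%, against 9.35% in the main fit). With a library left out it was 0 to 2: 0 without AICAR d16+2p (5.03%), and 1 without AICAR d16+3p (5.82%) or AICAR+LIF d16+3p (6.28%). For AICAR in the cultures it was 2, where 8.9% of all genes were called. It was 0 without both shallow d8 libraries (0% of all genes) or without the day term (0.0905%), and 0 to 2 with a library left out (1.05% to 15.9%). For d16 against d8 it was 2, where 30.2% of all genes were called, and DESeq2 added Cab39 (log2 -0.43, adjusted p = 0.0443, 33% called). The count was 1 with no filter (18.6% of all genes called), on thinned counts (23.9%), without the AICAR term (17.9%) or with the medium as a block (24.3%). With a library left out it was 1 to 2 (13.5% to 24.9%). For 129/MSM against Oct4GIP it was 0, and 1 with no filter and 0 to 1 with a library left out (1 without either primed library), settings in which 929, 1402 and 1323 genes were called in place of 15, and for AICAR+LIF against AICAR it stayed 0. The cause of these moves was not tested.

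Without normalization factors, 54.4% of all calls with AICAR were higher instead of 38.1%, and 47.4% of those at d16 instead of 58.0%, where the median of all genes moved by -0.12 on the log2 scale. On counts thinned to 438771 reads per library the Prkaa2 share was 68.2% in naive cells and 33.2% at d16+2–3p, and the Prkab2 share was 58.8% at d8. The other 15 mean shares moved by less than their spread. Thinning leaves 8 reads of Camkk2 in the shallowest library as an example of the limit that depth sets. Leaving 1 library out moved the count of all genes called with AICAR from 1377 to between 173 and 2618, by over 1.5 times for each of the 8. For 129/MSM against Oct4GIP it moved from 15 to between 3 and 1402, for d16 against d8 from 4673 to 2734, 2232 and 3089 (without Basal, 2iL or AICAR d8), for d16+10p against d16+2–3p from 1753 to 939, 965 and 1087 (without AICAR d16+2p, AICAR+LIF d16+2p or AICAR d16+3p), and without primed Oct4GIP from 7032 to 4115 for cultures and from 6863 to 4462 for d16+10p against primed cells.

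Replicate numbers only name libraries here, but line, medium and LIF pair some of them. The comparisons of lines and of LIF held the pair as a term, without which they also called 0. Fits with a replicate block were added after seeing the data. By line, d16+10p against primed cells called 2 genes (Strada and Camkk2), where 43.9% of all genes were called. By medium, d16 against d8 called 1 (Prkag2), where 24.3% were. By LIF, in the AICAR and AICAR+LIF libraries of Oct4GIP, d16+10p against d16+2–3p called 2 (Prkaa2 and Prkag2), where 15.7% were.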
